A study of Mus musculus with 67 samples.

Results

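The expression of 10 genes of fatty acid desaturation and synthesis was followed in mouse preimplantation embryos cultured with or without light exposure of 2-cell embryos. The genes were Scd1, Scd2, Scd3, Fasn, Elovl6, Fads1, Fads2, Acly, Acaca and Plin2, which were 10 of the 26414 genes in the deposited table, and each was found there by its symbol. They were listed with earlier results of these data known. Scd3 was taken for its fall in light 8-cell embryos, so that this fall, and the steps of Scd3 into and out of the 8-cell stage, are described here without a test.

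The embryos were of the strain C57BL/6, were fertilized in vitro, and carried no altered gene. In the light group 2-cell embryos were kept under 5000 lx for 6 h and then cultured in the dark, while control embryos stayed in the dark (0 lx). Libraries were made by SMART-seq2, a method for polyadenylated RNA of single cells, from 2-cell, 4-cell and 8-cell embryos, morulae and blastocysts, in 7, 6, 4, 13 and 3 control libraries and 6, 8, 8, 6 and 6 light libraries in this order. Per the methods of the study, each library was made from a single cell picked from a dissociated embryo. The labels number an embryo for each library but name no mother, litter or day. The methods do not state whether the cells of a group came from different embryos, and this was not tested. Libraries of cells that share an embryo would not be independent replicates. The p-values therefore measure only the spread between these 67 libraries. Every n below counts single-cell libraries, also where these are called embryos, morulae or blastocysts.

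Cells make saturated fatty acids from citrate: Acly, the ATP citrate lyase, releases acetyl-CoA in the cytosol, Acaca, the acetyl-CoA carboxylase, turns it into malonyl-CoA, and Fasn, the fatty acid synthase, joins these units to palmitate, which Elovl6 lengthens to stearate. Stearoyl-CoA desaturases then place a double bond in palmitoyl-CoA and stearoyl-CoA, and so supply the monounsaturated chains of membranes and of stored fat. Mouse Scd genes lie side by side and differ in tissue: Scd1 is known best from liver and fat, Scd2 from brain and the embryo, and Scd3 from skin and the Harderian gland. Fads1 and Fads2 desaturate polyunsaturated fatty acids, and Plin2 encodes a coat protein of lipid droplets.

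Scd1 (chromosome 19, 44394455 to 44407879, minus strand), Scd2 (19, 44293674 to 44306864, plus strand) and Scd3 (19, 44203269 to 44244016, plus strand) form a cluster in GRCm38 together with Scd4 (19, 44333092 to 44346743, plus strand). Because their coding sequences are alike, the stretch of 60 coding bases in which the copies differ most from Scd3 is shown, with capitals for bases that differ from Scd3. It begins at coding base 298 of Scd3, and the other copies have 17 (Scd1), 17 (Scd2) and 23 (Scd4) differences in it.
Scd3: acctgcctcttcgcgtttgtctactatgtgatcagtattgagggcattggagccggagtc
Scd1: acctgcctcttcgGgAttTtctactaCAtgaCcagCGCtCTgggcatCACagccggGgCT
Scd2: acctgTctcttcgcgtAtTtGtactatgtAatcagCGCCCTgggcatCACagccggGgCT
Scd4: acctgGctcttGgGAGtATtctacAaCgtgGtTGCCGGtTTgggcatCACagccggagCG
Over the aligned coding sequence Scd3 was 91.5% identical to Scd1, 88.3% to Scd2 and 84.6% to Scd4. Of all windows of 50 bases in the longest Scd3 transcript of GENCODE M21, 4.85% also occurred in Scd1, 3.95% in Scd2 and 1.98% in Scd4. The bases of such a window alone cannot be assigned to a copy, while the rest of each transcript is its own. The study sequenced longer reads in pairs, which can reach beyond a window. The share of reads that could not be assigned was not tested. How the authors treated reads with more than 1 place in the genome is not given in the sources used here.

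RefSeq promoters (GRCm38.p6) were found for 7 of the 10 genes. The 250 bases before the RefSeq gene start are shown for Scd3, the Scd gene with the widest span of group means, and for Fasn, the member with the narrowest. For Scd3 the RefSeq start lies downstream of the GENCODE start given above (44203269), so that the last bases shown lie inside the GENCODE gene. The letters CCAAT, a site bound by NF-Y in many lipid genes, are in capitals on either strand.
Scd3 chr19:44203038-44203287 (plus strand): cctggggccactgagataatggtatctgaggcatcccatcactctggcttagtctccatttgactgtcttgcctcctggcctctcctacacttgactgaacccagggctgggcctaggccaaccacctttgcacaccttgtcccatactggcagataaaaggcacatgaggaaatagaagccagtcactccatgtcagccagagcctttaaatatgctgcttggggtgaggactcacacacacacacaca
Fasn chr11:120824548-120824797 (minus strand): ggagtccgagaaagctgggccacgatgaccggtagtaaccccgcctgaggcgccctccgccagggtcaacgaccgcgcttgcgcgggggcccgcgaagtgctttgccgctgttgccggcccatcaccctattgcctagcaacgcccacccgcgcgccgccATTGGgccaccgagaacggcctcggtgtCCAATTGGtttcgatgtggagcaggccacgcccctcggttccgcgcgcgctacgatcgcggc
Searched on both strands, CCAAT occurred 3 times before Fasn and 1 time before Plin2, and was not found before Scd3. Of 27025 promoters of the same length 34.5% held it. A sterol response letter string (TCACNCCAC, in 1.04% of promoters), an E-box (CACGTG, 6.05%), a GC box (GGGCGG, 32.9%) and TATAAA (13.0%) were not found in this window of Scd3 either. No match says only that these letters are not in these bases.

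Values are reads divided by a size factor of each library, as deposited, with no division by length, and differences are given on the log2(value + 1) scale, which understates the change of low genes. Libraries held 836011 to 8551674 reads, of which 54.0% to 89.3% lay on 2 features with rRNA sequence, CT010467.1 and Gm42418, so that 318177 to 2867034 reads remained for other genes and 1 read was worth 0.266 to 3.89 units. The ratio of Gm42418 to CT010467.1 reads was 1.58 to 1.77 in light and 2.34 to 4.03 in control 2-cell libraries, 1.52 to 1.71 against 2.01 to 2.34 at the 8-cell stage and 1.49 to 1.67 against 2.34 to 4.14 in morulae. Its groups did not overlap there, and what made these libraries differ cannot be told apart from light. Of the 6 control 4-cell libraries 4 had a higher median r with light libraries than with their own group, by most in library 3 (0.887 against 0.849), and no count of called members at the 4-cell stage changed with any 1 of the 14 libraries of that stage left out. CPM are reads outside the rRNA features, scaled to a common total. From the 8-cell stage on, Y-linked genes reached 10 CPM in 0 of 20 control and 10 of 20 light libraries. These were 3 of 8 light libraries at the 8-cell stage, 1 of 6 in morulae and 6 of 6 in blastocysts. Their part in the member values was not tested, and in blastocysts it cannot be told apart from light.

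Over the 10 groups Scd3 was highest in control 8-cell embryos, by which the gene was chosen. In control 8-cell embryos its values were 312.8, 739.5, 660.5 and 284.9. In the light 8-cell libraries they were 17.1, 0.481, 5.96, 34.1, 0, 3.72, 0 and 12.0. The lowest control value lay above the highest light value, and all 8 light libraries were lower than all 4 control libraries, as was the case for 2.3% of the genes tested, from which nothing is read here. The means were 499.4 ± 234.1 (SD, n = 4) in control and 9.16 ± 11.8 (SD, n = 8) in light, a log2 difference of -6.51 (standard error 0.81). This is the difference for which the gene was chosen. It lay between -6.91 and -6.18 with each library left out in turn. The 2 light libraries without a read, 9 and 11, could have held up to 1.27 and 2.99 units at the level that 3 reads give, which covers counting error only. In CPM, Scd3 averaged 806 ± 400 in control and 13.1 ± 16.6 in light 8-cell libraries.

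At the other stages Scd3 did not separate the groups. In 2-cell embryos it had 71.0 to 227 in control (median 172, n = 7) and 53.7 to 275.9 in light (median 166, n = 6). At the 4-cell stage it had 0 to 62.2 in control (median 4.62) and 0 to 282 in light (median 14.7), where light library 1 alone held 282.0 and the other light libraries 39.5 or less. Morulae had 1.17 to 107.6 in control (median 19.6) and 1.26 to 38.3 in light (median 16.2). Blastocysts had 14.2, 9.39 and 7.06 in control, and 3.15 to 12.5 in light (median 6.36). These ranges overlapped at each stage, and the log2 differences between light and control lay between -0.62 and 0.85 with standard errors of 0.40 to 1.06 (adjusted p = 0.622 to 0.887, limma). By mean, control 8-cell embryos came first of the 10 groups, followed by light 2-cell (163.4) and control 2-cell embryos (159.3), and only the first place was free of overlap with the next group.

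**Figure D1:**
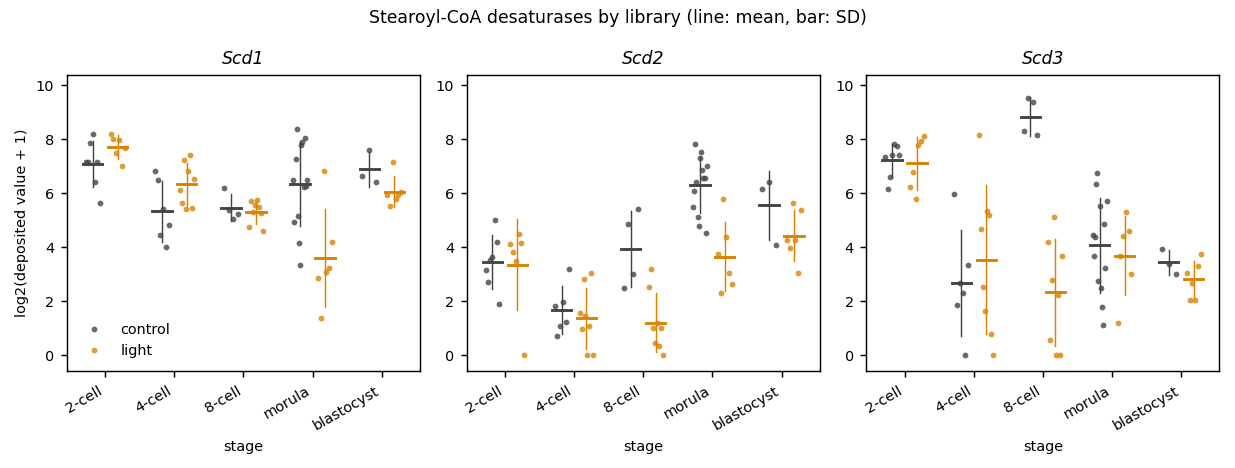
Level of Scd1, Scd2 and Scd3 in each library (points), as log2 of the deposited value plus 1 on the vertical axis, by stage on the horizontal axis for control (grey) and light (orange), with the group mean (line) and SD (bar). Scd3 stood highest in the 4 control 8-cell libraries (284.9 to 739.5), and Scd1 and Scd2 were lower in light than in control morulae.

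In the control group Scd3 fell from the 2-cell to the 4-cell stage by 4.54 on the log2 scale (standard error 0.88, adjusted p = 1.22e-05, limma over all 10 groups), stood 6.15 (standard error 1.02) higher again at the 8-cell stage, and 4.76 (standard error 0.90) lower in morulae. The last 2 steps rest on the libraries that chose the gene and were not tested. In the light group it fell by 3.57 (standard error 0.85, adjusted p = 0.000663, limma) from the 2-cell to the 4-cell stage, then differed by -1.21 (standard error 0.79) to the 8-cell stage. edgeR, run on the reads recovered from the deposited values, gave -1.08 for the first of these light steps (adjusted p = 0.358), and the part of light 4-cell library 1 in that value was not tested. The level of Scd3 was thus high at the 2-cell stage in both groups, at 39.5 or less at the 4-cell stage in all libraries but light library 1 and control library 1 (62.2), and high a second time in control 8-cell embryos.

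The genes whose levels followed Scd3 most closely over all 67 libraries were Colgalt2 (Pearson r = 0.768), a collagen galactosyltransferase, Zfp352 (0.757), a gene of the transient 2-cell programme, and Ankrd22 (0.754), out of 8262 genes with a mean of at least 10 over all libraries. These coefficients are across libraries that share stages and size factors and are given without a test. Zfp352 had 28.7, 109.1, 109.1 and 17.1 in control 8-cell libraries 1 to 4 and 0 to 2.32 in light 8-cell libraries. Colgalt2 had 155.5, 234.3, 23.2 and 25.9 in control and 0 to 4.26 in light, and Ankrd22 4.63, 65.0, 58.0 and 68.4 in control and 0 to 3.85 in light. Light 4-cell library 1, the one with 282.0 of Scd3, also held the highest 4-cell values of all 3 genes (14.2, 74.6 and 25.0). All 3 genes were picked for their likeness to Scd3 over these same libraries. Their 8-cell and 4-cell values are therefore a description and no independent observation.

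Since Zfp352 belongs to a list of 8 genes expressed transiently at the 2-cell stage, the whole list was set beside Scd3. Its summed level was 83.9 to 363.1 (median 242) in control and 1.90 to 123.9 (median 46.3) in light 8-cell libraries, with 8 of 8 genes above 0 in either group. In 2-cell embryos it was 348.7 to 801 in control and 139.6 to 1829 in light. At the 4-cell stage light library 1 had the highest sum (428.2, against 131.5 or less in the other 4-cell libraries). Of its 5 genes tested at the 8-cell stage, Zfp352 was called lower in light and the other 4 were not called. Because Zfp352 was named for its likeness to Scd3 over the same libraries, its call is a description and no independent test. The part of this list in the Scd3 difference was not tested.

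To compare the copies with each other, values were divided by the length of their exons. In control 8-cell embryos Scd3 made up 84.3% to 95.6% of the summed Scd level per kilobase, and Scd1 3.42% to 14.2%. In light 8-cell embryos Scd1 made up 48.0% to 97.9% and Scd3 0% to 50.1%. The sum itself was 95.2 to 222 per kilobase in control and 7.93 to 19.2 in light, which again contains the fall that chose Scd3. At the 2-cell stage Scd3 held 35.6% to 82.2% in control and 24.8% to 70.3% in light, with Scd1 as the other main copy.
The make-up changed with development. At the 4-cell stage Scd1 was the main copy by median share (77.1% in control, 81.0% in light). In morulae Scd2 reached a median of 41.6% in control, beside 46.3% for Scd1, and 19.5% in light, beside 25.4% for Scd1 and 49.0% for Scd3, where the sum was lower (median 8.02 per kilobase, against 43.5 in control). In blastocysts the ranges of both groups overlapped for each copy, with medians of 69.1% and 72.1% for Scd1, 26.4% and 21.5% for Scd2 and 9.04% and 9.32% for Scd3 in control and light. Scd4 stayed at or under 1.66% of the sum in every library.

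**Figure D2:**
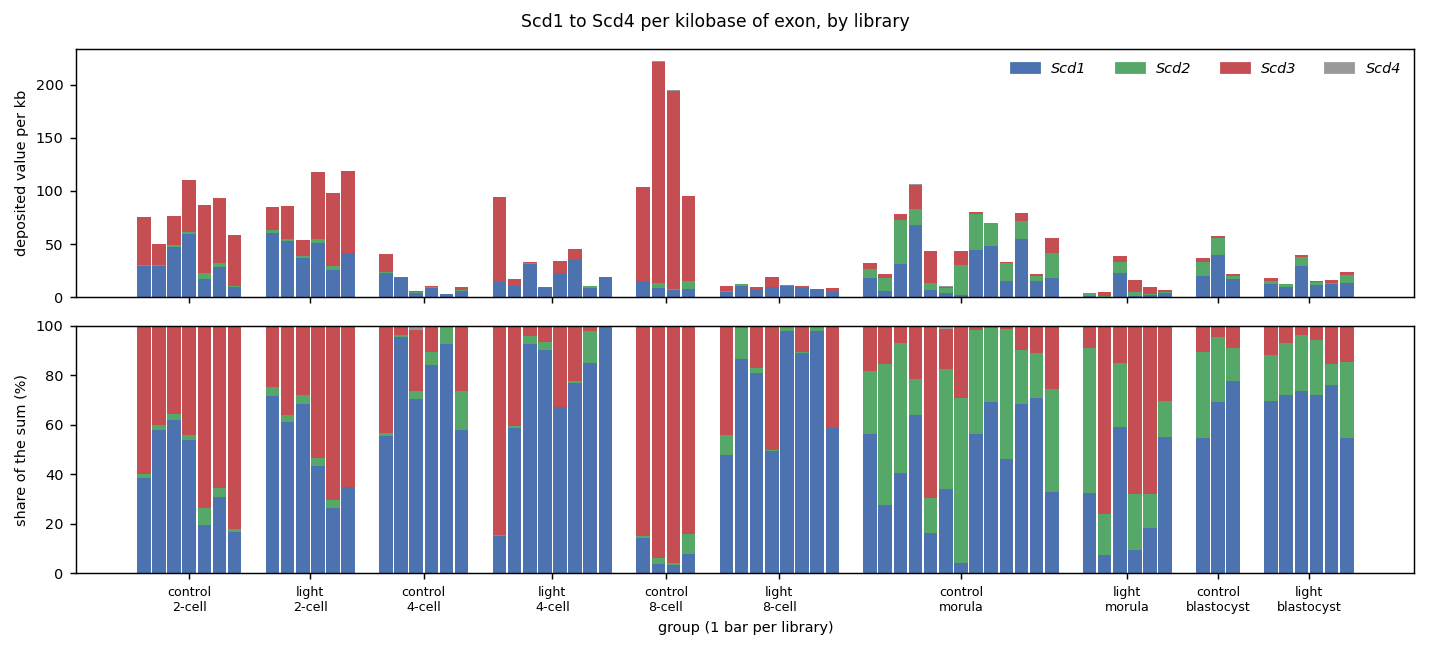
Scd1 to Scd4 in each library (1 bar), stacked as deposited value per kilobase of exon (top) and as the percentage of their sum (bottom), with libraries grouped by stage and light on the horizontal axis. Scd3 (red) fills most of the 4 control 8-cell bars, Scd2 (green) appears mainly in morulae and blastocysts, and Scd1 (blue) is present in every group.

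Scd2, the copy best known from brain and embryonic tissues, was lower in light morulae than in control morulae. Control morulae had 22.1 to 224 (median 93.8, n = 13). The light morulae had 12.6, 3.94, 54.7, 19.6, 7.27 and 5.24, so that 5 of 6 lay under the lowest control value and library 5 lay within the control range. The means were 97.8 ± 62.5 (SD, n = 13) and 17.2 ± 19.2 (SD, n = 6), a log2 difference of -2.66 (standard error 0.53, adjusted p = 0.0077, limma). The difference stayed between -3.09 and -2.39 with each library left out in turn, and its adjusted p at or under 0.0344.
Scd1, the main copy of liver and fat, differed in the same direction. It had 9.20 to 332.6 in control morulae (median 89.2), and 6.32, 1.57, 112.1, 7.47, 8.48 and 17.5 in light morulae. Library 5 was again the highest of the light group, and the groups overlapped. Means of 125 ± 106 (SD, n = 13) and 25.6 ± 42.7 (SD, n = 6) gave a log2 difference of -2.75 (standard error 0.69, adjusted p = 0.0389, limma). This call was lost without any 1 of 10 libraries (control 6, 9, 16, 18 or 23, or light 1, 3, 6, 9 or 12), with an adjusted p of 0.0535 to 0.128, and edgeR gave an adjusted p of 0.202. In all, 2 of 10 members were called in morulae, both lower in light, where 1.18% of the 15201 genes tested were called and 0.822% were called lower. The median log2 difference of the members was -0.76, against 0.10 for all genes.

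In 8-cell embryos Scd2 had 4.63, 28.2, 6.97 and 41.3 in control and 4.75, 8.18, 0.993, 0.387, 1.27, 0.266, 0.997 and 0 in light. Light libraries 5 and 6 (4.75 and 8.18) lay above the lowest control value, so that the groups overlapped, and the other 6 light libraries lay below all control libraries. The means were 20.3 ± 17.6 (SD, n = 4) and 2.11 ± 2.88 (SD, n = 8), a log2 difference of -2.73 (standard error 0.82, adjusted p = 0.0346, limma). Without control library 2 or 4 or light library 7, 10, 11 or 12 the adjusted p was 0.0502 to 0.115. Scd2 was 1 of 9 members other than Scd3 called at this stage, where 9.2% of 13844 genes were called, and nothing is read from that count since the same contrast chose Scd3. The reads behind these values were 5, 53, 6 and 99 in the control libraries, which held 338, 1389, 569 and 683 reads of Scd3. Both copies share sequence, and the part of shared reads in the Scd2 values of this stage was not tested.
Scd1 was not called at the 8-cell stage, with 45.4 ± 18.2 (SD, n = 4) in control and 40.0 ± 10.9 (SD, n = 8) in light, a log2 difference of -0.16 (standard error 0.40, adjusted p = 0.847, limma).

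Scd1 and Scd2 were also followed through development. In control embryos both fell between the 2-cell and the 4-cell stage, Scd1 by 1.74 (standard error 0.58, adjusted p = 0.0108, limma) and Scd2 by 1.77 (standard error 0.66, adjusted p = 0.022, limma). In the light group Scd2 fell by 1.98 (adjusted p = 0.013, limma) and Scd1 differed by -1.40 (adjusted p = 0.0546, limma). Scd2 then rose into the morula by 2.37 in control (standard error 0.67, adjusted p = 0.00879, limma) and by 2.44 in light (standard error 0.64, adjusted p = 0.0116, limma). From the 8-cell stage to the morula, Scd1 changed by 0.88 (standard error 0.60) in control and by -1.71 (standard error 0.57) in light, neither of which was called. The difference between these 2 steps was -2.59 (standard error 0.82, adjusted p = 0.0863, limma), and it passed the threshold without control morula library 14 or light morula library 5. Scd1 rose again from morula to blastocyst by 2.46 in light (standard error 0.60, adjusted p = 0.00339, limma) and differed by 0.54 in control (adjusted p = 0.761, limma). The control fall of Scd2 was lost without control 2-cell library 12 or control 4-cell library 2 (adjusted p = 0.0559 to 0.0621), its control rise without control 8-cell library 1 or 3 (0.0599 to 0.0861) and its light rise without light morula library 5 (0.0676). With a pseudocount of 0.1 the control fall and the control rise of Scd2 were also lost (adjusted p = 0.0564 and 0.0825, limma).

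Over all 67 libraries Scd2 was followed most closely by Tes (Pearson r = 0.708), a focal adhesion protein, and by Whamm (0.661) and Cox5b (0.661). Tes had 98.6 ± 40.7 (SD, n = 13) in control and 22.2 ± 7.96 (SD, n = 6) in light morulae. Whamm had 48.1 ± 25.3 and 21.5 ± 14.3 there, and Cox5b 119 ± 47.4 and 93.8 ± 36.4. These genes were picked for following Scd2 over the same libraries, so their values are a description only. For Scd1 the closest genes were Pak4 (0.631), a protein kinase, Hipk2 (0.602) and Dcp2 (0.60), the decapping enzyme. Scd1, Scd2 and Scd3 did not follow one another closely: the coefficients were 0.225 for Scd1 with Scd2, 0.278 for Scd1 with Scd3 and 0.131 for Scd2 with Scd3.

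The enzymes that supply and join acetyl units were present at each stage. Acly (chromosome 11, 100476353 to 100528000, minus strand) averaged 41.1 to 176 over the 10 groups, Acaca (11, 84129672 to 84401651, plus strand) 12.8 to 79.9, and Fasn (11, 120805846 to 120824547, minus strand) 49.2 to 145. The highest group mean exceeded the lowest by 4.27 times for Acly, 6.23 times for Acaca and 2.94 times for Fasn. The same ratio was 8.55 for Scd1, 46.4 for Scd2 and 74.3 for Scd3, and that of Scd3 rests on the control 8-cell mean for which the gene was chosen.
Acly rose from the 8-cell stage to the morula in control by 1.92 (standard error 0.45, adjusted p = 0.00122, limma), from 41.1 ± 19.6 (SD, n = 4) to 176 ± 101 (SD, n = 13). Its lowest and highest values were 19.4 and 67.1 at the 8-cell stage and 44.5 and 334 in morulae. In light the same step was 0.94 (standard error 0.42, adjusted p = 0.244, limma). The difference between both steps was -0.98 (standard error 0.62, adjusted p = 0.562, limma), so that they were not shown to differ. Neither Acaca nor Fasn was called in a step between stages by limma over all libraries, while Acaca was called higher from the 2-cell to the 4-cell stage in control without control 2-cell library 10 or 17, control 4-cell library 1 or control morula library 12.

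The ranges of light and control overlapped for these 3 genes at each stage, and limma on all libraries of a stage called none of them. Acly had 36.4 to 95.2 in control and 66.7 to 173 in light 2-cell embryos, a log2 difference of 0.90 (standard error 0.39, adjusted p = 0.14, limma), and was called higher in light by DESeq2. Acaca had 151, 17.6, 85.9 and 65.1 in control and 6.98 to 53.3 (median 25.2) in light 8-cell embryos, a log2 difference of -1.36 (standard error 0.55, adjusted p = 0.118, limma), and was called lower in light there by edgeR and DESeq2 on the recovered reads and by limma without control library 2. Fasn had 169, 189.6 and 55.2 in control and 8.83 to 94.1 in light blastocysts, a log2 difference of -1.60 (standard error 0.61, adjusted p = 0.12, limma). It was called there without control library 3, whose value lay among those of the light libraries.

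Elovl6 (chromosome 3, 129532355 to 129638495, plus strand), the elongase between palmitate and stearate, was among the 3 highest members per kilobase in each group. In control it rose from 107 ± 52.0 (SD, n = 7) at the 2-cell to 374 ± 67.4 (SD, n = 6) at the 4-cell stage, with 60.5 to 172 and 296 to 471 as the ranges, which did not overlap. The log2 difference was 1.92 (standard error 0.37, adjusted p = 1.45e-05, limma). In light the same step was 0.56 (standard error 0.36, adjusted p = 0.268, limma), from 180 ± 62.0 (SD, n = 6) to 263 ± 81.4 (SD, n = 8). The difference between the steps was -1.36 (standard error 0.52, adjusted p = 0.105, limma). Elovl6 shares exonic bases with Gm35986, and its reads there cannot be told apart without strand.

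The desaturases of polyunsaturated fatty acids were low. Fads1 (chromosome 19, 10182888 to 10196877, plus strand) rose in control from the 2-cell stage, with 0 in 3 of 7 libraries and 4.14 at most, to 0.683 to 62.9 at the 4-cell stage (median 18.6). The log2 difference was 2.70 (standard error 0.93, adjusted p = 0.0139, limma), it was lost without control 4-cell library 2 (adjusted p = 0.0569) and with the median ratio scaling (0.052), and in light the same step was -0.84 (adjusted p = 0.555, limma). Light 2-cell libraries held 0 to 22.1 (median 11.2), a log2 difference to control of 2.19 (standard error 0.83, adjusted p = 0.0833, limma). The difference between the 2 steps was -3.54 (standard error 1.30, adjusted p = 0.0869, limma) and was not called. Without light 2-cell library 10 both this difference and that between light and control 2-cell embryos were called.
Fads2 (19, 10062765 to 10101746, minus strand), next to Fads1, had no read in 5 of 6 control and 7 of 8 light 4-cell libraries and fell short there of the filter on low values. It fell in light from the 2-cell to the 4-cell stage by 1.82 (standard error 0.62, adjusted p = 0.0194, limma), a call lost without light 2-cell library 16 (0.129) and with the median ratio scaling (0.111). In control blastocysts it had 13.7, 18.1 and 0.642 against 0 in 9 of 13 control morulae, a rise of 2.28 (standard error 0.73, adjusted p = 0.0244, limma) that was lost without control blastocyst library 1 or 2 (0.198 to 0.275) and with edgeR (adjusted p = 0.083). The lowest of these values, in library 3, was a single read.

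Plin2 (chromosome 4, 86648386 to 86670060, minus strand), the coat protein of lipid droplets, was highest in blastocysts. Control blastocysts had 180.4, 127 and 147, and light blastocysts 28.0 to 147.6 (median 86.5). Before the morula the highest group mean was 23.3, in light 2-cell embryos. In control it rose by 2.78 (standard error 0.96, adjusted p = 0.0384, limma) from the 8-cell stage to the morula and by a further 3.12 (standard error 1.08, adjusted p = 0.0404, limma) to the blastocyst. The light steps were 2.49 (standard error 0.91, adjusted p = 0.11, limma) and 2.05 (standard error 0.97, adjusted p = 0.232, limma), and neither differed from the control step past the threshold (adjusted p = 1 and 0.879, limma). The first control rise was lost without any of 9 libraries (control 8-cell 1, 2 or 4, or control morula 1, 10, 12, 16, 23 or 26) and the second without control morula 2, 9 or 18 or any control blastocyst library, with an adjusted p of 0.0511 to 0.17 and 0.0514 to 0.144. The first was also lost with edgeR (1.83, adjusted p = 0.227) and the second with a pseudocount of 0.1 (adjusted p = 0.173, limma).

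**Figure D3:**
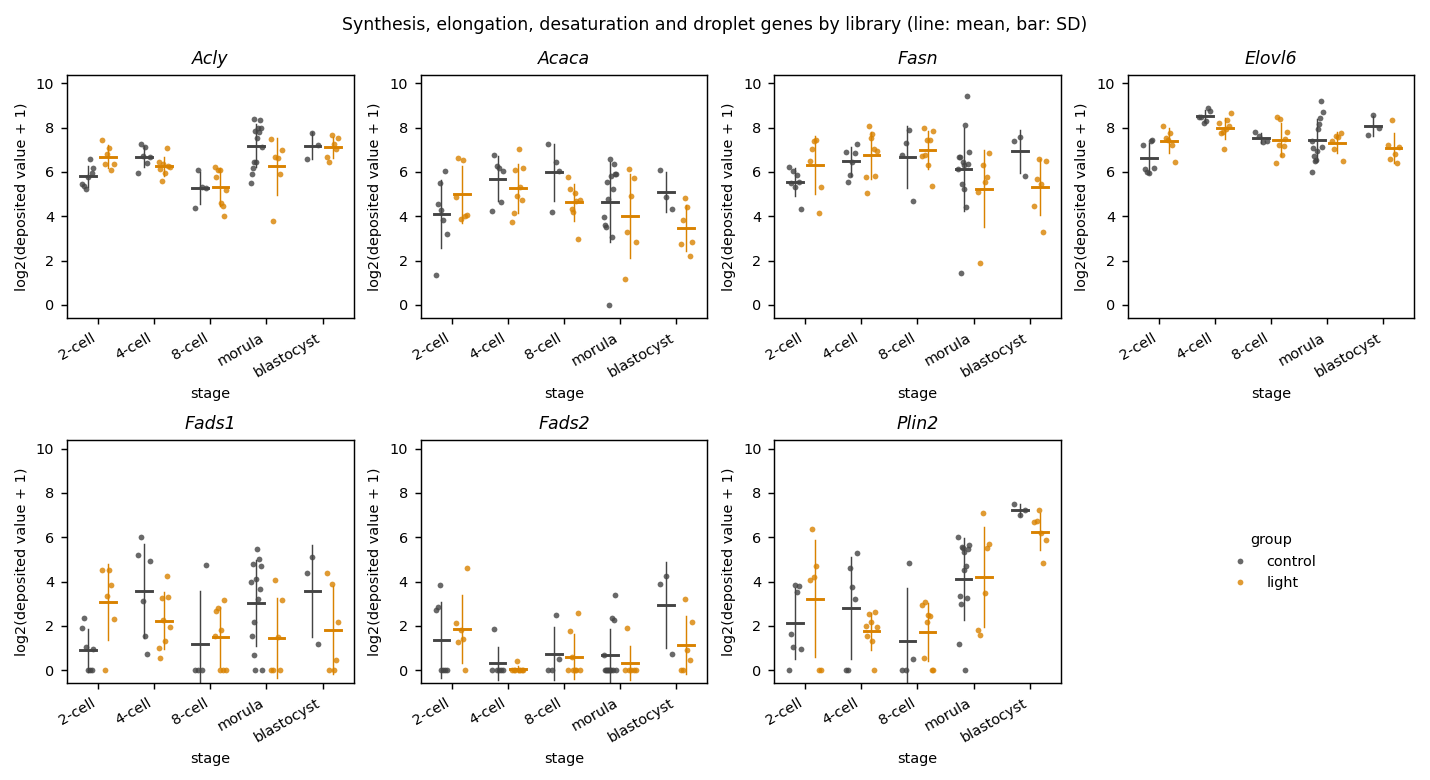
Level of the 7 other members in each library (points), as log2 of the deposited value plus 1 on the vertical axis, by stage on the horizontal axis for control (grey) and light (orange), with the group mean (line) and SD (bar). Plin2 stands highest in blastocysts, Elovl6 is present in every library, and Fads2 lies at or near 0 in 4-cell libraries.

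Counted over the steps between stages, the call rule (adjusted p under 0.05 and a change of at least 2-fold) was met by 5 of 10 members from the 2-cell to the 4-cell stage in control, where 42.4% of 22564 genes were called: Elovl6 and Fads1 rose, and Scd1, Scd2 and Scd3 fell. From the 4-cell to the 8-cell stage it was met by 0 of 9 (6.75% of all genes), with 4 of 9 at an unadjusted p under 0.05 by limma and 1, Scd2, called by edgeR. Acly, Scd2 and Plin2 rose into the morula, which is 3 of 9 members (14.8% of all genes), and Fads2 and Plin2 into the blastocyst, 2 of 10 (13.6%). In light 3 of 10 fell at the first step, namely Scd2, Scd3 and Fads2 (26.6% of all genes). The later light steps held 0 of 9 (2.35%; 1 of 9, Acly, at an unadjusted p under 0.05 by limma and 0 by edgeR), then 1 of 9 (Scd2, 4.6%) and 1 of 10 (Scd1, 8.39%). Neighbouring steps share libraries.
Whether the effect of light changed between successive stages was tested for 38 pairs of member and step, leaving out Scd3 where the 8-cell stage enters. limma called 0 of 38, with 6 at an unadjusted p under 0.05, and edgeR 1, Scd2 between the 4-cell and 8-cell stages. The shares of all genes called were 6.37%, 2.51%, 1.65% and 1.82% for the steps in order.

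Light against control within a stage called 0 of 10 members in 2-cell embryos, where 10.5% of 18510 genes were called. The unadjusted p was under 0.05 for Elovl6, Fads1 and Acly, all with higher means in light, edgeR called 0 and DESeq2 called Acly and Fads1. The median log2 difference of the members was 0.78, against 0.00064 for all genes. In 4-cell embryos 0 of 9 members were called (1.45% of 14995 genes), with an unadjusted p under 0.05 for Scd1 by limma and 0 calls by edgeR and DESeq2. The members' median was -0.42 and that of all genes 0.13.
In blastocysts 0 of 10 members were called (5.33% of 12728 genes). The unadjusted p was under 0.05 for 5 of them by limma, Fasn, Elovl6, Fads2, Acaca and Plin2, with lower means in light, and edgeR and DESeq2 called 0. Here all genes together had a median log2 difference of -0.64 on the deposited scale, the cause of which was not tested, and the members' median was -1.05. The 2 rRNA features held 77.8% to 89.3% of the reads in light blastocyst libraries (median 84.3%) and 73.8% to 81.0% in control (median 74.0%). The part of this share in the differences was not tested. In CPM, Scd1 had 193 ± 74.8 (SD, n = 3) in control and 183 ± 61.4 (SD, n = 6) in light, and Acly had 229 ± 55.4 and 391 ± 157, while the deposited values gave 154 ± 62.1 and 143 ± 45.2 for Acly. The direction for Acly and Scd3 thus depended on the scale.
Control blastocyst libraries 1 and 2 also stood apart from the light libraries in a list of 8 inner cell mass markers (summed level 1867 and 1342, against 146 to 207 in light), while control library 3 had 291. Of these markers 6 of 8 were called lower in light. In a list of 9 trophectoderm markers 0 of 9 were called, with summed levels of 491 to 7201 in control and 2848 to 7167 in light, and of 7 primitive endoderm markers tested Pdgfra and Lama1 were called lower. Which cell type each library came from was not known, and the part of cell type in the member values was not tested. Y-linked genes reached 10 CPM in 6 of 6 light and 0 of 3 control blastocyst libraries, which cannot be told apart from light here.

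**Figure D4:**
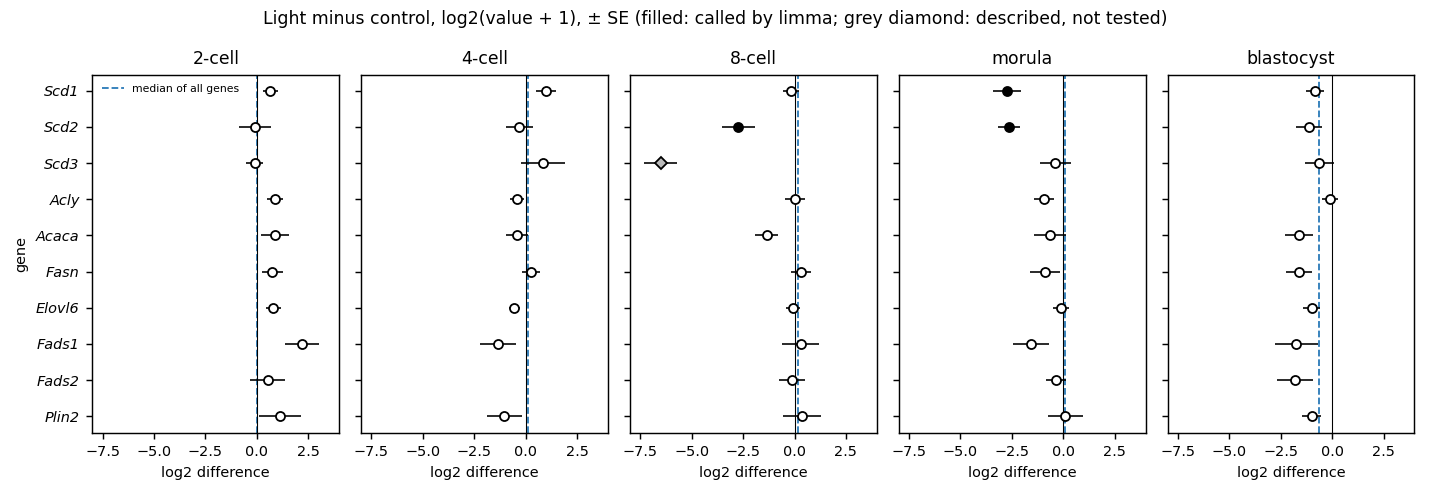
Light minus control difference of each member (rows) at each stage (panels) on the log2(value + 1) scale, with the standard error as bar and the median of all genes as a dashed line. Filled points passed limma's call rule (Scd2 at the 8-cell stage, Scd1 and Scd2 in morulae), open points did not, and the grey diamond is Scd3 at the 8-cell stage (-6.51), which chose the gene and was not tested.

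To see what other lipid genes did, 114 genes in 8 lists were taken, from the supply of acetyl units to β-oxidation. At the 8-cell stage 12 of 94 tested were higher and 1 lower in light, which is 13.8% called, beside 9.2% of all genes. Their median log2 difference was 0.66, against 0.16 for all genes. Of 26 genes for lipolysis and β-oxidation, the breakdown of fatty acids, 6 were higher in light and 0 lower, or 23.1% called beside the same 9.2%: Acadl, Acadm and Acads, dehydrogenases for chains of different length, Hadh and Hadhb, which act in the steps that follow, and Slc25a20, the carnitine carrier of mitochondria.
Acadl rose most, from 0.939 ± 1.88 (SD, n = 4) in control, close to 0, to 82.8 ± 52.6 (SD, n = 8) in light, a log2 difference of 5.50 (standard error 0.65, adjusted p = 1.53e-05, limma). Hadh rose by 2.89 (standard error 0.70, adjusted p = 0.00954, limma), though edgeR gave an adjusted p of 0.0568. For triacylglycerol, 2 of 21 genes were called (9.52%, close to the share of all genes), both higher: Gpat3, which adds the first chain to glycerol phosphate, had 28.7 ± 20.8 in control and 104 ± 26.6 in light, a log2 difference of 2.07 (standard error 0.41, adjusted p = 0.00242, limma), and Agpat2, which adds the next, had 66.7 ± 38.8 and 227 ± 91.3, a log2 difference of 1.86 (standard error 0.42, adjusted p = 0.00546, limma).
Activation and binding held 3 calls of 12, with the binding proteins Dbi and Fabp3 higher and the transport protein Slc27a4 lower. Tecr (1 of 9 for elongation) and Oxsm (1 of 4 for mitochondrial fatty acid synthesis) were higher. No gene was called among 5 for acetyl-CoA and malonyl-CoA supply, 5 other desaturation genes and 12 of transcriptional control. These genes were given because the count of calls is small, after their values were seen. In the same libraries Krt8 and Krt18 of the trophectoderm list, Pou5f1 and Tdgf1 of the inner cell mass list and Gata6 of the primitive endoderm list were called higher in light, and their part in the lipid values was not tested.

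In 2-cell embryos 5 other lipid genes were higher and 1 lower of 108 tested, which is 5.56% called, below the 10.5% of all genes. Acsl4, an acyl-CoA synthetase for arachidonate, had 20.5 ± 14.6 (SD, n = 7) in control and 227 ± 134 (SD, n = 6) in light, without overlap, a log2 difference of 3.48 (standard error 0.48, adjusted p = 2.87e-05, limma). Mid1ip1, a protein that activates acetyl-CoA carboxylase, had 0.113 ± 0.300 and 17.4 ± 15.2, a log2 difference of 3.38 (adjusted p = 0.00512, limma) that depends on the pseudocount, as control is near 0. Hsd17b12, a reductase of the elongation cycle, rose by 2.01 (adjusted p = 0.0179, limma), which was lost without light library 14 (0.0564), and Degs2, a sphingolipid desaturase, fell by 2.70 (adjusted p = 0.0122, limma). The other calls were Slc27a1 and Gpat3, both higher. In 4-cell embryos 1 of 98 was called, Acsl1, a further acyl-CoA synthetase, higher by 3.05 (standard error 0.77, adjusted p = 0.0414, limma). It was lost without any of 12 of the 14 libraries, all but control 3 and 4, with an adjusted p of 0.0601 to 0.0884.
In morulae limma called 0 of 96 (13 at an unadjusted p under 0.05, 0 by edgeR and 1 by DESeq2), although Scd1 and Scd2 were called. In blastocysts 6 of 94 were called (6.38%, near the 5.33% of all genes), all lower in light on the deposited scale, on which the median log2 difference of all genes was -0.64. These are the libraries in which 6 of 8 inner cell mass markers were called lower, with control libraries 1 and 2 apart from the rest, and the part of those markers was not tested. Mbtps1, the protease that releases the lipid regulators SREBP, had 77.0 ± 14.4 (SD, n = 3) in control and 14.6 ± 5.92 (SD, n = 6) in light, a log2 difference of -2.40, or -1.76 relative to that median (adjusted p = 0.0135, limma). Elovl7, an elongase, fell by 3.76, Me1, the malic enzyme that supplies NADPH, by 1.52 and Acsl3, an acyl-CoA synthetase of droplets, by 2.75 (adjusted p = 0.0166, 0.0197 and 0.0311, limma). Relative to the median of all genes these were -3.12, -0.88 and -2.11, and Me1 had -0.86 with the median ratio scaling and -0.83 with edgeR and with DESeq2, less than 2-fold. With edgeR the calls of Mbtps1 and Acsl3 were lost too (adjusted p = 0.0941 and 0.104). Slc27a1 and Tecr were the other 2. With the median ratio scaling 0 of 94 were called. The calls of Mbtps1, Elovl7, Me1 and Acsl3 were each lost without control library 2 (adjusted p of 0.0535 to 0.162), that of Elovl7 also without control library 1 and that of Acsl3 also without control library 3 or light library 15, 26 or 29.

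**Figure D5:**
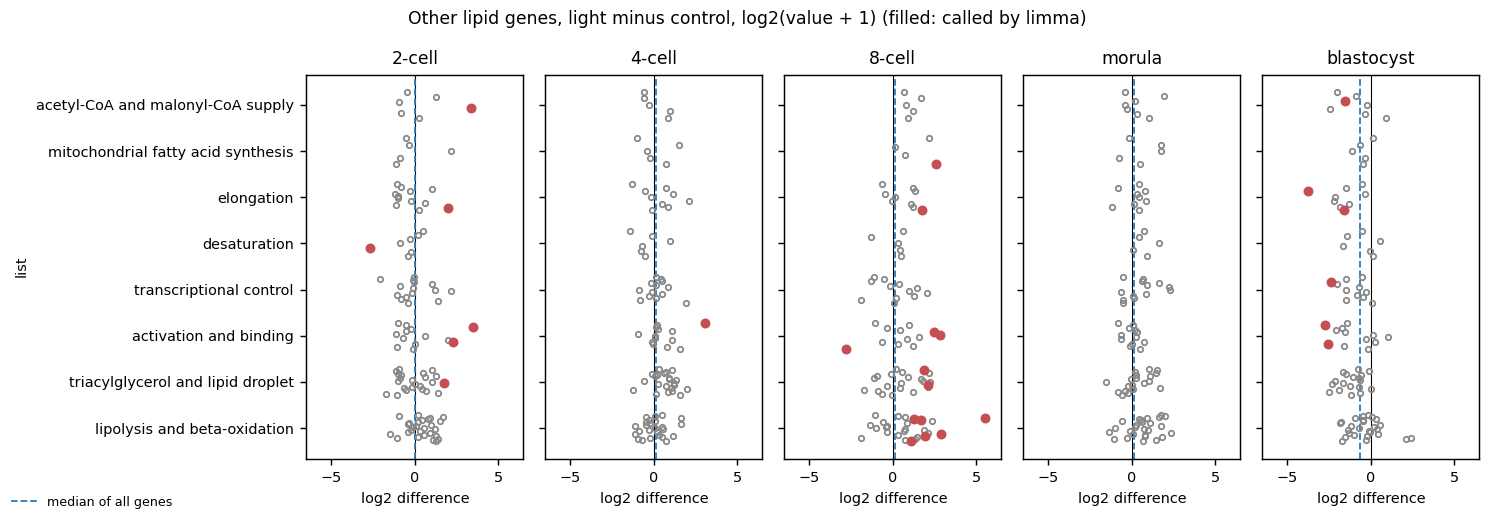
Light minus control difference of the other lipid genes (points) on the log2(value + 1) scale, by list (rows) and stage (panels), with the median of all genes as a dashed line and called genes filled. The 8-cell panel holds 12 filled points to the right and 1 to the left, and the blastocyst panel 6 to the left.

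Per kilobase, the order of the members changed with stage. In control 2-cell embryos Scd3 (44.9 ± 16.2 per kilobase) and Scd1 (31.5 ± 17.0) came first, followed by Elovl6 (16.7 ± 8.08), and the mean ± SD of neighbours overlapped. At the 4-cell stage Elovl6 led with 58.2 ± 10.5 in control and 40.9 ± 12.7 in light, beyond the SD of the next gene in control (Acly with 20.2 ± 6.40), while in light the mean ± SD of Scd1 (18.5 ± 10.2) still met it. In control 8-cell embryos Scd3 led with 141 ± 65.9, while in light Elovl6 (30.6 ± 15.6) did and Scd3 (2.58 ± 3.32) came after Fasn, Acly and Scd1. Elovl6, Acly and Scd1 held the first places in control morulae (33.5 ± 24.3, 33.3 ± 19.1 and 25.6 ± 21.7), and in blastocysts Elovl6, Plin2 and Acly led in control (43.2 ± 13.7, 43.1 ± 7.73 and 29.1 ± 11.8) and Acly, Plin2 and Elovl6 in light (27.1 ± 8.56, 24.2 ± 11.9 and 23.3 ± 13.7). The mean ± SD of neighbours overlapped in these last groups.

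Markers of cells that could be carried over were low. Of 7 cumulus cell genes, 3 were above 0 in control and 3 in light 8-cell libraries, with summed levels of 0 to 11.6 and 0 to 7.45, and Fshr, Foxl2 and Cyp19a1 were at 0 in both. Of 6 sperm genes 1 was above 0 in each of these groups, with 2.49 at most. In 2-cell libraries the cumulus sum was 9.66 to 22.2 in control and 6.61 to 65.2 in light, where Tnfaip6 was called higher.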

How the data were processed

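SMART-seq2 libraries of 67 mouse embryo cells were grouped by stage and light from their labels. The submitters' processing notes name HISAT2, HTSeq 0.9.1 and the build mm9. The methods of the study state RPKM, but the deposited signal showed no division by length: 99.97% to 100% of the values in a library were whole multiples of 1 read within 0.01 reads, so that the values deposited by the authors are reads divided by a size factor. The main test was therefore run on this signal and the recovered reads were used for edgeR and DESeq2. Rows whose symbol had become a date (24) were left out.

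Light was compared with control at each stage by limma 3.58.1 (R 4.3.3, empirical Bayes with trend) on log2(value + 1), keeping genes whose value exceeded 1 in 3 or more libraries of the comparison, with an adjusted p (Benjamini-Hochberg over all genes tested) under 0.05 and a change of at least 2-fold. Successive stages and changes of the light effect were tested in 1 fit over 10 groups. Alternatives were a pseudocount of 0.1, no filter, median ratio scaling, edgeR 4.0.16, DESeq2 1.42.0, a replicate block, CPM outside the 2 rRNA features, and each library left out. The fits were tested on simulated data. Gene models were those of GENCODE M21 (GRCm38), which held 99.7% of the symbols, so no coordinates of mm9 are given.

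The members and the lists were chosen with earlier results of these data known. Named were all 10 members, at each stage up to 4 called genes of the lipid lists with the smallest adjusted p and a group mean of at least 10, and the 3 genes that correlated best with each Scd gene. Total reads per library were 836011 to 8551674, and limits from a count of 0 cover counting error only.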

Additional observations from a re-analysis of the deposited data

Results flagged for a closer look

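Dixon's test was run on 80 sets, each holding the values of 1 member in 1 group of 4 to 10 libraries. In 8 of them 1 library stood apart from the others of its group. Chance gives this in about 1 in 20 independent sets of normal values. These sets share libraries and several hold values at or near 0, so that this rate need not hold here. Scd1 had 141.5 in light blastocyst library 23, against 45.2 to 64.4 in the other light blastocysts. Scd2 was at 0 in light 2-cell library 16, against 10.3 to 21.8. Fasn had 2.756 in light morula library 3, against 32.9 to 113.4, and Fads2 had 2.756 in the same library, against 0 in the other light morulae.

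Fads1 had 25.86 in control 8-cell library 4 and 0 in the other 3. Fads2 had 2.621 in control 4-cell library 2 and 0.3529 in light 4-cell library 7, against 0 in all other libraries of those groups. Plin2 had 27.86 in control 8-cell library 3, against 0 to 0.417 in the others.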

How the results depend on the processing

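No called value reversed its direction under any alternative run. Of the members, light against control called 2 at the 2-cell stage with DESeq2 (0 in the main test). At the 8-cell stage, leaving Scd3 aside, 0 were called with a pseudocount of 0.1 or no filter, and 2 with edgeR or DESeq2 (main 1). In morulae 1 was called with no filter or with edgeR (main 2). With each library left out, the count ranged from 1 to 2 for morulae and from 0 to 1 for 2-cell embryos, 8-cell embryos and blastocysts alike. Of the other lipid genes, DESeq2 called 12 at the 2-cell stage (main 6). Among 4-cell embryos no filter, edgeR and DESeq2 called 0 (main 1). At the 8-cell stage no filter and edgeR called 8 (main 13). In morulae the median ratio scaling and DESeq2 called 1 (main 0). In blastocysts 3 were called with a pseudocount of 0.1, 2 with no filter, 0 with the median ratio scaling and 1 with edgeR (main 6). Leaving out each library gave 5 to 11 for 2-cell embryos (11 without light library 16), 0 to 1 for 4-cell embryos, 8 to 16 for 8-cell embryos (8 without control library 3) and 0 to 12 for blastocysts (0 without control library 2, 3 without light library 26 and 12 without light library 23). For steps between stages in light, counted as pairs of member and step, edgeR called 8 (main 5). For changes of the light effect it called 1 such pair (main 0), where leaving out a library gave 0 to 1.

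Groups share replicate numbers at the 2-cell, 4-cell and morula stages, but the 10 correlations between libraries of the same number were -0.0871 to 0.0694 and no library correlated best with its own number, so the samples share only a number. The fit with the replicate block kept only libraries whose number occurs in both groups, in morulae the numbers 1, 6, 9 and 12. It called 0 members in morulae, where Scd2 had a log2 difference of -2.67 (adjusted p = 0.303, limma) and Scd1 of -3.23 (adjusted p = 0.242, limma). With the same block 13 other lipid genes were called in 2-cell and 0 in 4-cell embryos. Of the genes named above for 2-cell embryos, Degs2 (-2.13, adjusted p = 0.0933, limma) and Hsd17b12 (1.475, adjusted p = 0.191, limma) lost their call with it. No paired analysis was possible for the 8-cell and blastocyst stages because their groups share no number.

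In blastocysts, CPM outside the rRNA features moved the log2 ratio of mean levels to -0.08 for Scd1, 0.22 for Scd3, -0.17 for Elovl6 and 0.77 for Acly. The causes of these shifts were not tested. Depth limits low genes, since 1 read was worth 0.266 to 3.89 units.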
